A study of Mus musculus with 2 samples.

Results

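Processed pseudogenes are gene copies that were made from messenger RNA and put back into the genome. They were taken here as the autosomal genes that the GENCODE M21 annotation of GRCm38 types as processed_pseudogene or transcribed_processed_pseudogene and that held 5 or more rows of the deposited methylation table, a row being 1 cytosine of a CpG on 1 strand. Of 9193 such pseudogenes on the autosomes, 1550 held at least 1 row and 683 held 5 or more. The 683 comprised 601 of the plain type and 82 of the transcribed type, and together held 8875 of the 1756096 autosomal rows. A member held a median of 9 rows, at most 242, and 295 members held 10 or more. For each member the mean percent methylation over its rows was taken in each library.

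The libraries came from Xmas mouse embryonic stem cells (mESCs), a female line of strain C57/Bl6 in which each X chromosome carries a different fluorescent reporter, GFP or mCherry, under the Hprt promoter. Cells cultured by the study's modified 2i/LIF suspension method, for 7 passages by the labels and another number by the study's methods, were sorted by flow cytometry on these reporters into XX and XO populations, and reduced representation bisulphite sequencing (RRBS) was performed on 1 library of each karyotype. XO cells have lost an X chromosome, and the reporters report X number alone, not other chromosomes. No agent or deletion distinguished the groups, and a methylation table holds no transcript levels by which the cell type could be checked. The design asks whether DNA methylation differs between XX and XO cells. With no replicates there is no test of karyotype. Except where stated, the intervals given below are 95% order-statistic intervals of a median over pseudogenes. They describe how pseudogenes vary and not how cultures vary. Read depth per CpG was not used here and is unknown, so no counting error is attached to any value.

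Processed pseudogenes arise when the reverse transcriptase of LINE-1 elements copies a spliced messenger RNA, so a copy usually lacks the introns and the promoter of its parent gene. A copy of a CpG-rich coding sequence starts with the CpGs of its parent. Methylated cytosines deaminate to thymine over evolutionary time, which turns CpG into TpG or, seen from the other strand, CpA, and old methylated copies therefore lose their CpGs. RRBS reads fragments cut by MspI at CCGG, so it samples copies that have kept CpG-rich sequence.

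The stretches with the most listed CpGs are shown for the pseudogenes with the largest fall and the largest rise in XX among members with 10 or more rows, and for the member with the most rows, beside the coding sequence of the likely parent where there is one to compare. Listed CpGs of a pseudogene are in capitals, and every CpG of a parent is in capitals. Gm5279 is a copy of Sfn, which encodes the 14-3-3 protein stratifin, and its stretch is chr3:107343202-107343381 (GRCm38, plus strand). The Sfn stretch covers coding bases 247 to 428.
Gm5279: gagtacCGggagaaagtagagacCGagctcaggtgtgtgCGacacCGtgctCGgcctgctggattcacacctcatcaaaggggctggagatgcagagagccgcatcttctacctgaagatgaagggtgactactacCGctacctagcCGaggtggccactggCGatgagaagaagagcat
Sfn: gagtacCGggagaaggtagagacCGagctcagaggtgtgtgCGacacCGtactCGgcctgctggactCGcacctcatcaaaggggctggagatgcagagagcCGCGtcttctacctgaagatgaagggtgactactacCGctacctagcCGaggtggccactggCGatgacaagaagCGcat
Of the 12 CpGs in this Sfn stretch, the pseudogene kept 9, changed 2 to CpA and changed 1 otherwise. The 8 listed cytosines of Gm5279 in this stretch ranged from 5.56% to 20.8% methylation in XX and from 40% to 90% in XO. These ranges did not overlap, but Gm5279 was chosen for its large fall, and neighbouring cytosines are not independent values.

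Gm12818 lies on the minus strand inside Skint6 and is a copy of Minpp1, an inositol polyphosphate phosphatase, and its stretch is chr4:112979712-112979813. The Minpp1 stretch covers coding bases 97 to 198.
Gm12818: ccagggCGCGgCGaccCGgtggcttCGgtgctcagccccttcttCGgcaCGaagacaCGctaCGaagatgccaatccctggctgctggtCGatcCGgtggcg
Minpp1: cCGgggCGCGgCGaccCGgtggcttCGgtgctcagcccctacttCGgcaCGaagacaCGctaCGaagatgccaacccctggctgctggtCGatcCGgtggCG
The copy kept 12 of 13 parental CpGs here. In this stretch the 16 listed cytosines averaged 4.48% in XX and 6.05% in XO, whereas the 13 listed cytosines elsewhere in Gm12818 averaged 32.7% in XX and 3.24% in XO. The rise of the pseudogene as a whole thus lay outside the CpG-dense stretch shown. It also lay mainly on the reverse strand, with 27.2% in XX and 8.175% in XO over all reverse rows. The forward rows had 2.94% and 0.0%.

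Gm15645 held the most rows, 242, over 101330 bases of chromosome 7, and its densest stretch is chr7:105762323-105762502 on the plus strand.
Gm15645: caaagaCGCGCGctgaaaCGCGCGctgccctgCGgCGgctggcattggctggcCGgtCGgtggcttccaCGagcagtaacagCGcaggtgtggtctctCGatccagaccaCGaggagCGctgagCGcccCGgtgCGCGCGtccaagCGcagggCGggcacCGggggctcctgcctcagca
Its 45 listed cytosines in this stretch averaged 4.52% in XX and 4.02% in XO. Gm15645 overlaps a protein-coding gene in part, and its span is far longer than that of a simple retrocopy, so its mean describes a transcription unit and not only copied sequence.

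A further pair, chosen after the values were seen, shows how far copies of 1 parent can differ. Rpl13 encodes a protein of the large ribosomal subunit, and Rpl13-ps6 and Gm6218 were its lowest and highest copies in XO. The stretches are chr3:58987278-58987457 and chr12:54622590-54622769, both on the plus strand, and the Rpl13 stretch covers coding bases 109 to 288.
Rpl13-ps6: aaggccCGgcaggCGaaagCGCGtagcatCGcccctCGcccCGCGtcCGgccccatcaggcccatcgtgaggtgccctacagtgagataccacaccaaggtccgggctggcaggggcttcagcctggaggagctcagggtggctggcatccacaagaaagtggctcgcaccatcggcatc
Rpl13: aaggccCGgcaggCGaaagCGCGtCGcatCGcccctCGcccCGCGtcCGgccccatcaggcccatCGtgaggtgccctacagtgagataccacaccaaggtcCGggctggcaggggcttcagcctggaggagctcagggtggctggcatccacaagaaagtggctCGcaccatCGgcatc
Gm6218: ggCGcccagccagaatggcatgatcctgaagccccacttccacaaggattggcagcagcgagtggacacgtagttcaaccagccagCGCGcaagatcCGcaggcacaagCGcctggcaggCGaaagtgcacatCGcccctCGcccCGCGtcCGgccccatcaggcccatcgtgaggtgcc
Rpl13-ps6 matched its parent at 179 of 180 bases and kept 13 of the 14 CpGs of the Rpl13 stretch. Its 16 listed cytosines lay between 0.0% and 8.33% in XX and between 0.0% and 9.52% in XO. The Rpl13 stretch shown is the one aligned to Rpl13-ps6. Gm6218 aligned to coding bases 3 to 184 of Rpl13, so the stretches of the copies overlap only in part. It kept 12 of the 19 CpGs there, with 2 now TpG, 4 CpA and 1 changed otherwise. The 11 listed cytosines of the Gm6218 stretch lay between 69.2% and 100% in XX and between 76.9% and 100% in XO. One copy was thus almost unmethylated and the other almost fully methylated in both libraries.

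Processed pseudogenes were hypomethylated in XX relative to XO cells, by a larger margin than genes in general. The median over the 683 members was 26.0% in XX (quartiles 12.3% and 40.7%) and 45.4% in XO (quartiles 24.8% and 63.2%). The median difference, XX minus XO, was -16.2 points (interval -17.3 to -14.6). A total of 598 members were lower in XX, 83 were higher and 2 were equal. The 598 are 87.6% of the members, close to the 86.7% of all 21742 autosomal genes with 5 or more rows that were lower in XX, so the direction alone did not set pseudogenes apart. At least 20 points lower in XX were 278 members, 40.7%, against 13.6% of all genes. At least 20 points higher were 6 members, 0.878%, against 0.129% of all genes, so both shares were larger in members. Members and all genes were not matched in number of rows. Among the members with 10 or more rows, 31.9% were at least 20 points lower. The ratio of the XX mean to the XO mean over members was 0.642.

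**Figure D1:**
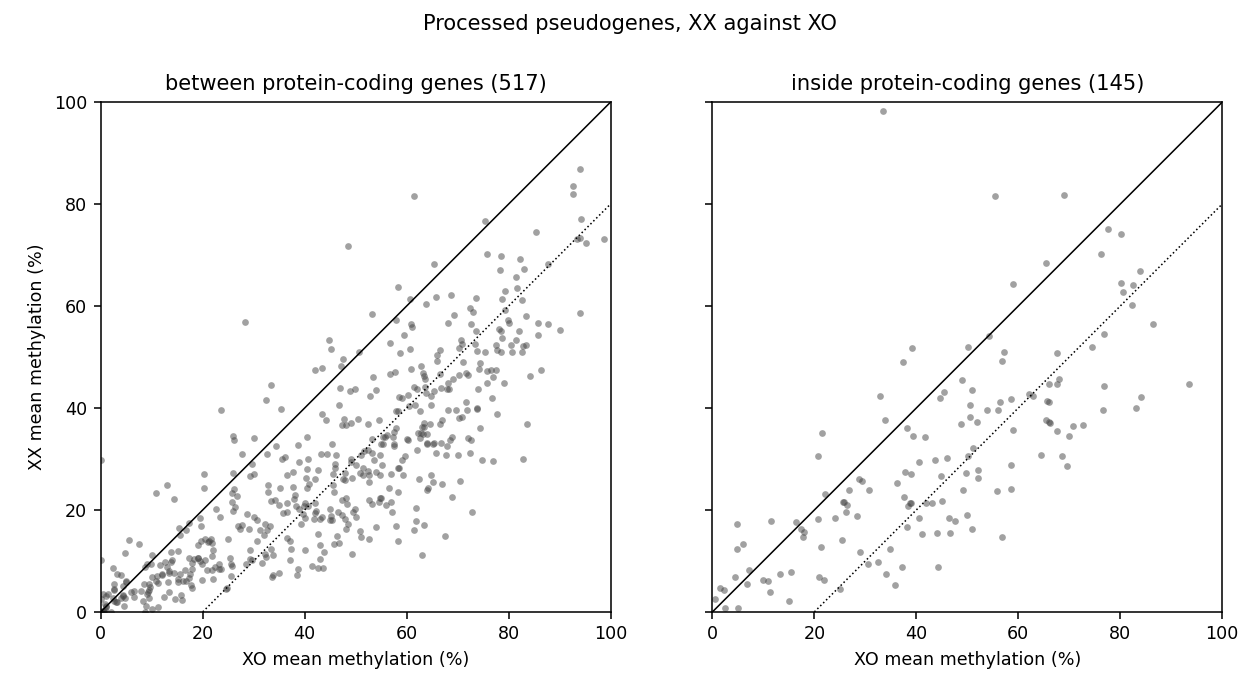
Mean methylation in XX (vertical, %) against XO (horizontal, %) for each processed pseudogene between protein-coding genes (517, left) and inside them (145, right), 1 point per pseudogene. The solid line marks equal levels and the dotted line a level 20 points lower in XX, and 460 of the 517 and 121 of the 145 points lie below the solid line.

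The other gene types placed this difference. Protein-coding genes, whose spans include promoters, had medians of 15.3% in XX and 21.4% in XO over 15875 genes, with a median difference of -6.11 points. The 2083 lincRNA genes, long non-coding genes between coding genes, had medians of 26.3% and 43.7% and a difference of -14.2 points. Unprocessed pseudogenes, which arise by duplication of genomic DNA and not through RNA, had medians of 29.9% in XX and 51.2% in XO over 196 genes. Their difference of -16.0 points (interval -18.6 to -12.5) overlapped that of the processed pseudogenes, and 38.3% of them were at least 20 points lower. The overlap does not show that both kinds of pseudogene are alike.

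Levels in XO spread over the whole scale. In XO, 71 members had a mean under 10% and 11 had one of 90% or more, and in XX these counts were 138 and 1. In XO the interval from 40% to 50% held the most members, 99, whereas in XX the interval under 10% held the most.

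A member with a higher XO level can fall by more points, so the ratio of XX to XO was compared at like XO levels. The 547 members with 2 or more rows on each strand were grouped by XO methylation on one strand and the ratio was read on the other strand, which keeps the noise of the grouping out of the ratio. Grouped on the forward strand, the ratio was 0.678, 0.602, 0.593, 0.640 and 0.750 in the XO bands 0 to 20%, 20 to 40%, 40 to 60%, 60 to 80% and 80 to 100%, which held 116, 114, 161, 118 and 38 members. The ratio for all other autosomal genes in the same bands was 0.763, 0.683, 0.639, 0.653 and 0.701. Members had the lower ratio in the 3 bands under 60%, and with the strands exchanged they again did, with 0.641, 0.538 and 0.586 against 0.759, 0.675 and 0.638. Above 60% the order of members and other genes changed with the strand or the band. Members thus had both higher XO levels than other genes and, under 60%, a lower ratio. Levels were matched only roughly, as the 20 to 40% band on the forward strand read at 33.7% XO in members and 28.6% in other genes. Without bands the ratio of means was 0.646 in unprocessed pseudogenes and 0.651 in lincRNA genes, near the 0.642 of members. Neither class was read in bands, so a lower ratio is not shown to be particular to processed pseudogenes.

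**Figure D2:**
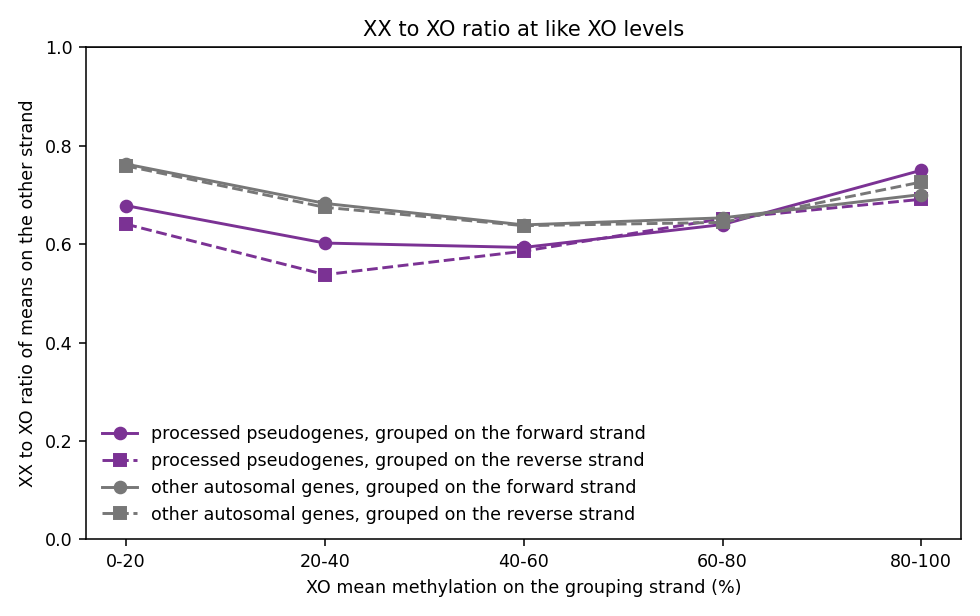
Ratio of the XX mean to the XO mean (vertical) in 5 bands of XO methylation (horizontal, %) for processed pseudogenes and all other autosomal genes. Members were grouped on one strand and read on the other, with solid lines for grouping on the forward strand and dashed lines for the reverse, and the pseudogene lines lie under those of other genes in the 3 bands below 60%.

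The forward and reverse rows of a member are read from different fragments and can cover different CpGs. Their disagreement thus mixes measurement noise within a library with differences along the pseudogene. The forward and reverse means of the 547 members differed by a median of 8.54 points in XX and 10.4 points in XO, without regard to sign. Across these members the strands correlated with r = 0.666 in XX and r = 0.762 in XO, as a description of regions that share 1 library each. The XX minus XO difference was less reproducible, with a median disagreement of 10.01 points between strands and r = 0.298. Its direction was lower in XX on both strands in 402 members, higher on both in 23, and opposite or tied in 122. Of the 222 members at least 20 points lower over both strands, 218 were lower on each strand. They were picked on the mean of these same rows, so this agreement largely follows from the choice. A difference under about 10 points in a single pseudogene was therefore within the median disagreement between the strands of a member.

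The median levels of pseudogenes inside protein-coding genes were close to those between genes. The 145 members that lay whole inside the span of a protein-coding gene had medians of 27.4% in XX and 44.7% in XO, and the 517 that touched no protein-coding gene had medians of 26.0% and 46.7%. The median difference between libraries was -15.0 points inside (interval -17.7 to -10.4) and -16.7 points between (interval -18.7 to -15.2). Inside minus between, the medians differed by 1.42 points in XX (-4.39 to 7.23), by -1.98 points in XO (-8.25 to 4.30) and by 1.74 points in the XX minus XO difference (-2.31 to 5.80). The intervals of these differences between groups are symmetric approximations. They combine the widths of the order-statistic intervals of both groups as the root of summed squares. Each includes 0, but among members with a CpG observed to expected ratio under 0.6 the XO medians differed by -5.83 points (-11.6 to -0.0341). That setting was among 17 alternatives for the XO value, and the upper end of its approximate interval is close to 0. At least 20 points lower in XX were 54 of the 145 inside, 37.2%, and 220 of the 517 between, 42.6%. At like XO levels the XX to XO ratio was higher inside than between in 10 of 10 combinations of band and strand. In the band from 0 to 20% it was 0.916 inside (22 members) and 0.612 between (85 members) when grouped on the forward strand, and 0.819 (25) and 0.598 (98) on the reverse. In the band from 40 to 60% it was 0.614 and 0.584 on the forward strand and 0.618 and 0.577 on the reverse. These ratios carry no error, and the groupings use the same members.

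Classes within the inside group varied more than the inside and between groups did. The 58 inside members on the strand of their host had medians of 23.3% in XX and 38.9% in XO with a difference of -7.59 points (-16.8 to -4.97), and the 87 on the opposite strand had 30.2%, 46.6% and -16.9 points (-21.0 to -13.8). These intervals overlap. The 16 inside members that overlapped an exon of a protein-coding gene had medians of 16.1% in XX and 27.7% in XO. Without them the remaining 129 had a difference of -15.7 points. The 21 members that overlapped a coding gene only in part were lower in both libraries, at 12.1% in XX and 25.1% in XO.

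Nearness to a promoter and the annotation of transcription went with low methylation. The 42 members with the start of a protein-coding gene within 1 kb had medians of 13.9% in XX and 25.1% in XO, against 26.6% and 46.6% for the other 641. The 82 members annotated as transcribed had medians of 22.4% in XX and 29.98% in XO and a difference of -8.25 points (-14.1 to -4.23). The 601 plain members had 26.1% and 46.7% and a difference of -16.9 points (-18.6 to -15.5), and these intervals do not overlap. The 3 members with the most rows were all of the transcribed type, namely Gm15645, 4931440P22Rik (4.69% in XX and 5.15% in XO over 201 rows) and D630033A02Rik (1.88% and 3.02% over 201 rows). Gm15645 and 4931440P22Rik overlap the coding genes Dchs1 and Tiparp in part and span a coding start. In them the transcribed type and nearness to a start cannot be told apart. Rows were averaged over the whole span of a member, introns included, so not every row of a transcribed member lies in copied sequence. Exons held 92 of the 242 rows of Gm15645, 188 of the 201 rows of 4931440P22Rik and all rows of D630033A02Rik. The transcribed type was not read in exon rows alone.

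In the median, pseudogenes carried about the methylation of the DNA within 10 kb of them. Flanks of 10 kb on each side held 5 or more rows for 423 members, with rows in any other processed pseudogene left out. The median over these members was 21.9% in the pseudogene and 23.9% in the flanks in XX, and 40.6% and 38.6% in XO. Paired within members, pseudogene minus flanks was -0.839 points in XX (-3.57 to 1.67) and 0.607 points in XO (-1.97 to 3.44). The spread around these medians was wide, with quartiles of -14.6 and 19.6 points in XO. The XX minus XO difference had a median of -14.8 points in the pseudogenes and -10.9 points in their flanks. Across members the pseudogene and its flanks correlated with r = 0.286 in XX and r = 0.356 in XO, points that share libraries and often base composition. Flanks of 2 kb, available for 206 members, gave r = 0.421 and r = 0.6002, and against flanks of 50 kb the excess of the pseudogene in XO was 7.21 points (646 members, 4.25 to 9.54).

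By location, the pseudogene exceeded its flanks in XO by 6.01 points inside protein-coding genes (89 members, -3.69 to 13.4) and differed from them by -0.577 points between genes (317 members, -2.89 to 2.69). Both intervals include 0.

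Pseudogenes were mostly higher than the exons of their parents, whereas they lay above and below their 10 kb flanks about equally often. Without regard to sign, the median difference in XX was 14.6 points from the parent and 13.7 from the flanks. In XO it was 30.5 points from the parent and 17.4 from the flanks. Of the 683 members, 668 aligned to the transcript of a protein-coding gene elsewhere, and 584 did so with at least 70% identity over at least 50% of their length, which was taken as a candidate parent. The other 99 could not be placed as copies by this rule, and they rest on the annotation alone. The 584 traced to 389 parents, 14 of the members having a parent on the X chromosome. Where the exons of the parent held 5 or more rows, in 531 members, the exons had medians of 8.48% in XX and 11.3% in XO, against 25.5% and 45.7% in the copies. The copy exceeded its parent by a median of 13.3 points in XX (10.9 to 16.3) and 29.3 points in XO (25.6 to 33.1). All annotated exons of the parent were used, first exons included, and not only the stretch aligned to the copy. The sequences compared are therefore not the same. It was the higher of the pair in 417 of 531 members in XX and in 463 in XO. The parental exons themselves differed by -1.96 points between libraries. The level of a copy hardly followed that of its parent, with r = 0.143 in XX and r = 0.146 in XO across the 531 members, many of which share a parent.

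**Figure D3:**
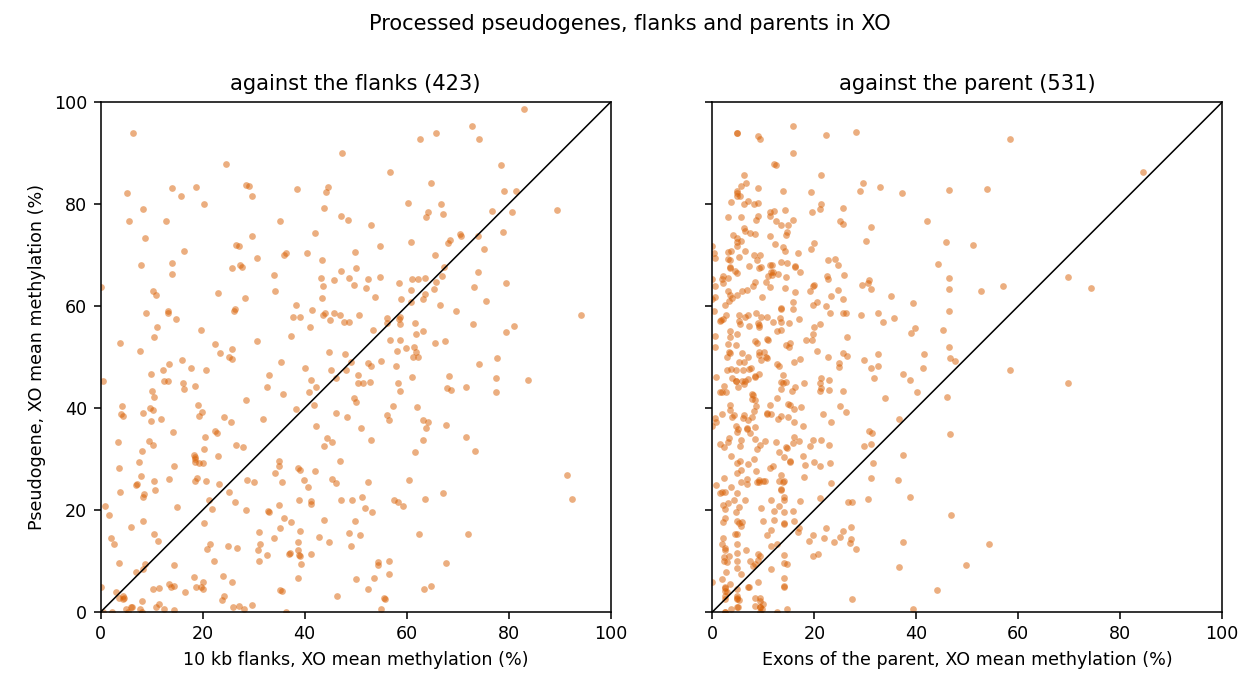
XO mean methylation of each pseudogene (vertical, %) against that of its 10 kb flanks (left, 423 members) and of the exons of its candidate parent (right, 531 members), both on the horizontal axis in %. The line marks equal levels: 215 of the 423 members lie above their flanks, and 463 of the 531 lie above their parent.

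The members were the CpG-rich end of all processed pseudogenes. Every member held a CCGG site, whereas 4852 of the 9193 autosomal processed pseudogenes held none. Members had a median of 28.5 CpGs per kb and a CpG observed to expected ratio of 0.437, against 12.2 per kb and 0.226 in the other 8510. Identity to the best-matching parent had a median of 93.4% in members and 89.7% in the others. Over all aligned parental CpGs, members kept 63.6% of 17844, with 12.2% now TpG, 11.4% CpA and 12.8% another dinucleotide. The other pseudogenes kept 39.9% of 119788, with 22.1% now TpG and 19.2% CpA. The values in this report therefore describe copies that have lost less of their CpG content than most.

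Methylation fell as CpG content rose. The 147 members with a CpG observed to expected ratio under 0.3 had medians of 34.3% in XX and 53.9% in XO, the 390 from 0.3 to 0.6 had 27.0% and 47.4%, and the 146 at 0.6 or more had 12.2% and 22.3%. The XX minus XO difference shrank with it, from -18.6 points (-21.7 to -16.2) to -17.0 points (-19.2 to -15.2) and -7.84 points (-11.0 to -4.81). The share of parental CpGs kept gave the same order. Members that had kept under 50% of them had medians of 34.0% in XX and 54.2% in XO (161 members), those with 50 to 80% had 24.03% and 45.02% (260 members), and those with 80% or more had 18.4% and 35.8% (163 members).

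**Figure D4:**
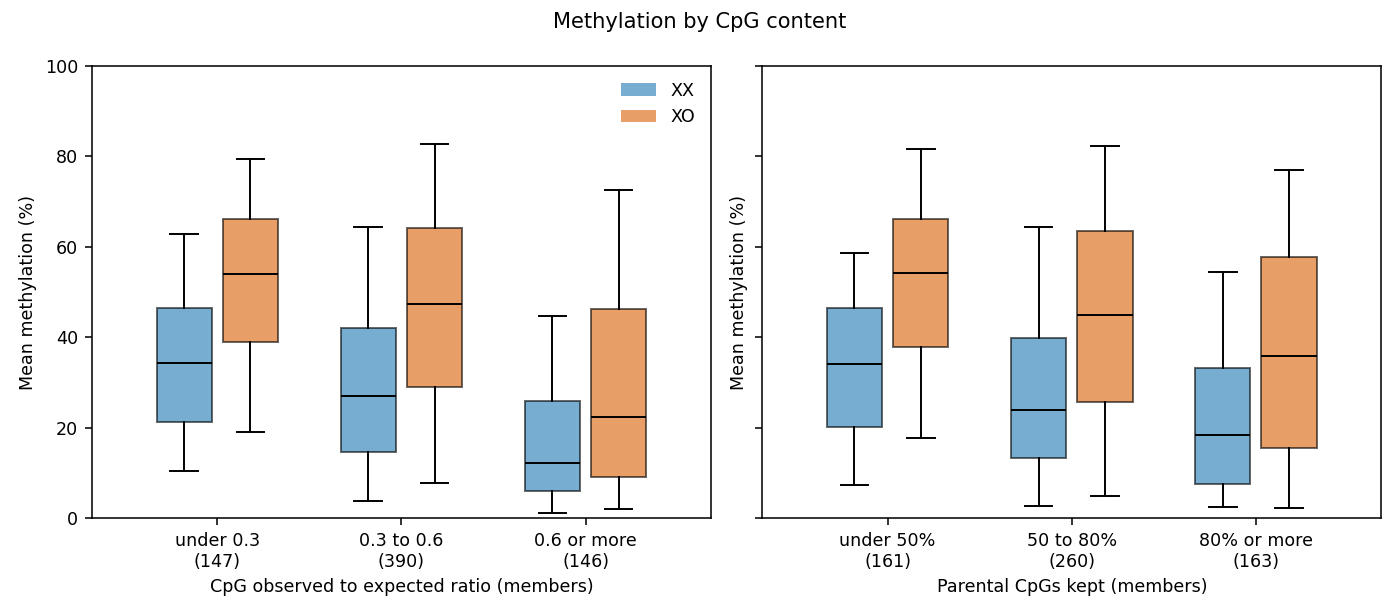
Mean methylation (vertical, %) in XX and XO by CpG observed to expected ratio (left) and by the share of parental CpGs kept (right), with the number of members under each class. Boxes give the quartiles and the median over members and whiskers the 5th and 95th percentiles, and both libraries are lowest in the classes richest in CpG.

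Reads from a pseudogene can be placed on its parent or on a sister copy and the reverse. For each listed CpG the 51 bases centred on it were read with every C as T, as bisulphite conversion does, and exact copies were counted over both strands of the assembled chromosomes. Of 8892 such windows, 1126 (12.7%) had a second copy. These fell in 364 members, and in 2 members every window was copied. Read length and the treatment of reads with several placements were not given in the sources used here, and a window without a second copy can still differ from a parent at few bases.

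Copied sequence did not mark out the members that differed between libraries. The 319 members with no copied window had medians of 28.5% in XX and 46.7% in XO with a difference of -16.4 points (-18.7 to -13.8), and the 364 with at least 1 had 23.0%, 43.2% and -15.7 points (-17.7 to -13.6). Within the 245 members that had at least 2 copied and 2 other CpGs, copied minus other CpGs differed by a median of 1.71 points in XX (-0.150 to 2.74) and 0.471 points in XO (-0.506 to 2.04). Parents being low, reads from a parent placed on its copy would move the copy's value towards the parent. Members at 95% identity or more to their parent had medians of 21.5% and 42.7% (237 members), and those under 90% had 30.1% and 49.0% (183 members), with differences of -16.1 points (-18.5 to -13.1) and -17.6 points (-20.8 to -15.2). The part of read placement in this order of levels was not tested.

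Processed pseudogenes often derive from abundantly transcribed genes, and the parents were grouped into 10 families by gene symbol. Copies of ribosomal protein genes were the largest family, with 140 members, medians of 26.4% in XX and 48.7% in XO and a difference of -17.1 points, and 125 of them were lower in XX. Over all members 87.6% were lower in XX, so a small family with all members lower is not set apart by that count. Copies of glycolysis genes had the highest medians of the families, at 41.9% in XX and 68.2% in XO (9 members, all lower in XX). Copies of cytoskeleton genes stood at 39.1% and 56.6% (12 members, all lower) and those of translation factors at 31.7% and 53.4% (12 members, 11 lower). Copies of genes for respiratory chain subunits had the lowest XX median, with 14.0% in XX and 36.0% in XO (14 members, all lower), and copies of RNA binding and splicing genes had 19.8% and 39.1% (12 members, 10 lower). Copies of chromatin protein genes had 18.9% and 43.2% (12 members, all lower), and copies of proteasome and ubiquitin genes 30.6% and 32.6% (7 members, all lower). The 4 copies of chaperone and prolyl isomerase genes stood at 31.3% and 48.5%, and the 3 copies of pluripotency genes, among them the Dppa3 copy Gm15620 inside Dmgdh (9.81% in XX and 32.5% in XO over 20 rows), at 25.5% and 32.5%. The remaining 458 members, in no family or without a parent, had 26.0% and 44.1%, so the families with many members lay near the whole.

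Pseudogenes of 1 parent often spanned a wide range, and 41 parents had 3 or more member copies. The 9 copies of Rpl13 ran from Rpl13-ps6 (2.23% in XX and 2.63% in XO) to Gm6218 (87.0% and 93.97%), while the exons of Rpl13 had 6.96% and 4.85%. The 10 copies of Cdv3 ran from Gm20760 (1.60% in XX and 0.887% in XO) to Gm13234 (58.7% and 93.96%). The 5 copies of Mif, which encodes a secreted cytokine, ran in XO from Gm16379 at 7.43% to Gm11908 at 72.8%. A shared origin thus did not fix the level.

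Copies of other parents spanned a narrower range in XO. The 12 copies of Rpl36, another protein of the large ribosomal subunit, were low in both libraries, with medians of 9.67% in XX and 17.3% in XO, from Gm30671 inside Ddx6 (0.819% and 4.96%) to Gm46231 inside Ank3 (9.39% and 30.4%). The exons of Rpl36 had 7.53% in XX and 14.0% in XO. The 3 copies of Smarca5, a chromatin remodelling ATPase, had medians of 3.17% and 2.67%, and the 3 copies of Ybx1, which encodes an RNA binding protein, 1.96% and 8.67%. The highest Ybx1 copy, Ybx1-ps2, had 16.3% in XX and 27.3% in XO. The 3 copies of Hdac1, a histone deacetylase, were high at 56.6% in XX and 73.7% in XO, as were the 3 copies of Gapdh, the glycolytic dehydrogenase, at 52.5% and 70.8%. The exons of these last parents were low, at 7.31% and 11.4% for Hdac1 and at 12.9% and 14.3% for Gapdh.

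**Figure D5:**
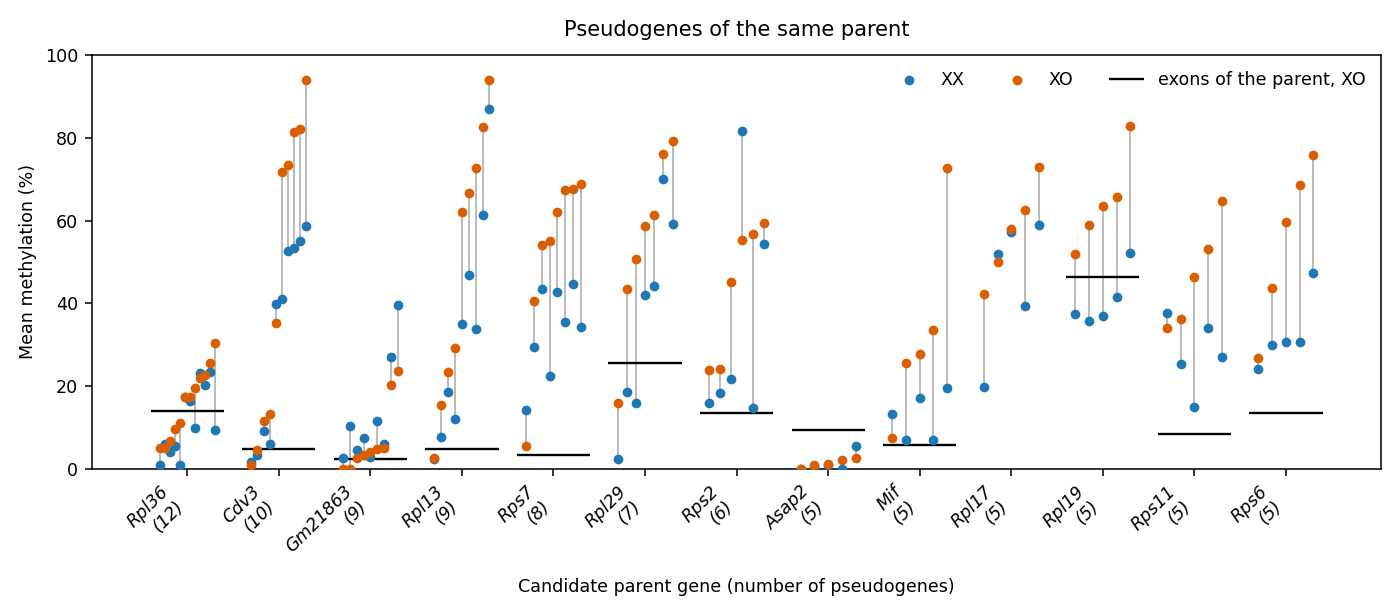
Mean methylation (vertical, %) in XX and XO of each pseudogene of the 13 candidate parents with 5 or more members (horizontal, number of members in parentheses), with each pseudogene's values joined by a line. The black bar gives the XO mean of the parental exons where they held 5 or more rows, and copies of Rpl13 and Cdv3 span most of the scale while those of Rpl36, Gm21863 and Asap2 stay low.

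A number of low members lay in clusters of repeated copies. Between 18 and 25 Mb of chromosome 12 lay 19 members with medians of 5.89% in XX and 2.63% in XO, of which 14 had an XO mean under 5%, and 18 of the 19 held a copied window. Among them were copies of Gm21863 and Asap2, the 5 copies of Asap2 having medians of 0.438% in XX and 1.05% in XO. Between 145 and 148 Mb of chromosome 4 lay 15 members, including most copies of Cdv3, with medians of 9.17% and 13.3%, and 14 of them held a copied window. Levels there were divided, with 6 members under 10% and 6 at 50% or more in XO. The 649 members outside both clusters had medians of 26.3% in XX and 46.4% in XO and a difference of -16.7 points. Whether reads of the clustered copies were placed on one another was not tested.

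The members with the largest differences were named among the 295 with 10 or more rows. Gm5279 had 14.9% in XX and 67.6% in XO, a difference of -52.7 points, and all of its 11 rows were lower in XX. Its flanks had 29.6% in XX and 27.8% in XO, so the fall was not shared by its surroundings. AC124126.1, a copy of Rangrf on chromosome 18, had 25.6% and 70.4%, with all 12 rows lower. Gm15784 (chr6:149361686-149363147), a copy of the transcriptional regulator gene Nacc1, had 24.3% in XX and 64.1% in XO with 28 of 29 rows lower. Gm7290 (chr7:142757236-142757852), a copy of Rpl13, had 33.8% and 72.6% with all 14 rows lower, and Got2-ps1 (chr5:138364260-138365552), a copy of the gene for mitochondrial aspartate aminotransferase, had 34.1% and 72.1% with 15 of 17 rows lower. All 5 lay between protein-coding genes, as did 221 of the 295 members with 10 or more rows.

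Among members with 10 or more rows, rises were smaller. Gm12818 had 17.1% in XX and 4.79% in XO, a difference of 12.4 points, with 17 of its 29 rows higher and 4 lower. Gm6623 (chr17:36179114-36179657), a copy of Akirin1, had 24.97% in XX and 13.01% in XO, and Gm7177 (chr17:15535065-15536704), a copy of the zinc finger gene Zfp91, had 44.6% and 33.4%. Gm11452 (chr2:162907924-162908613), a copy of the histone acetyltransferase complex gene Tada3, had 41.6% and 32.4%, and Gm8116 (chr9:78820638-78821838), a copy of Carnmt1, had 22.1% and 14.3%, all on the reverse strand. The strands of Gm11452 went opposite ways, with 15.7% in XX and 47.3% in XO on the forward strand and 63.1% and 20% on the reverse. In Gm6623 the rise lay on the reverse strand (41.0% and 20.8%, against 0.926% and 1.28% on the forward strand). In Gm7177, as in Gm12818, it lay mainly on the reverse strand (29.8% and 7.96%, against 55.7% and 52.5% on the forward strand). The rises of these whole members are near the 10.01 points by which strands of a member disagreed in the median. The 6 members at least 20 points higher in XX held 5 to 7 rows each. Of these, 5 are given, chosen after their values were seen, namely Gm37025 inside Dclk2 (81.6% and 55.4%), Gm16433 (81.5% and 61.4%), Gm7435 (56.9% and 28.2%), Gm48037 (29.8% and 0.0%) and Gm49258 (71.8% and 48.6%).

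At the ends of the scale in XO among members with 10 or more rows, Gm49379 in the chromosome 12 cluster had 2.48% in XX and 0.0% in XO over 27 rows, and Gm6802 in the same cluster had 0.228% and 0.368% over 32 rows. Gm16464, a copy of the cyclin gene Ccnyl1 inside Trim30d, had 2.49% and 0.489% over 30 rows. Besides Gm6218, the highest with 10 or more rows were CAAA01160818.1 on chromosome 18 (74.5% in XX and 85.4% in XO over 12 rows) and Gm44248 inside Klra17 (66.9% and 83.8% over 10 rows). The lowest of these stood near 0 in both libraries, and the highest were lower in XX.

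The members near the threshold of 5 rows were like those just under it. The 107 members with exactly 5 rows had medians of 37.7% in XX and 56.7% in XO, and the 190 pseudogenes with exactly 4 rows, which were not members, had 34.6% and 57.7%. Members with few rows were more methylated than the whole.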

How the data were processed

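One RRBS library of each karyotype was analysed. Per the submitters' processing notes, the authors used bcl2fastq and Bismark with mm10, and libraries were made with a NuGEN Ovation Methylseq kit. Versions, read length and any coverage minimum were not given in the sources used here. The deposited table gives percent methylation per cytosine for XX and XO, without counts, so depth and its error are unknown. Positions were matched to GRCm38, where 51 of 1782730 rows were not on a CpG. Rows inside each GENCODE M21 pseudogene were averaged per library, both strands included. Candidate parents came from blastn 2.17.0 (discontiguous megablast, e-value 1e-10) against protein-coding transcripts. Copies of windows were sought in chromosomes 1 to 19, X and Y. Members overlapped in 4 cases, and 60 spanned over 5 kb. Python 3.11.15 and scipy 1.17.1 were used, and code was tested on simulated data. Named members followed a rule of row number and size of difference, and exceptions are stated beside them. Members, gene families and lists were chosen with earlier results of these data known. No test of karyotype was made, since each had 1 library. The values of 1 member are not reported here.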

Additional observations from a re-analysis of the deposited data

How the results depend on the processing

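With 1 library per karyotype no replicate could be left out. No paired analysis was possible because each karyotype had 1 library and no result came from a test. Of 125 alternative values, 108 moved by less than the interval of the value or by under 1.5 times for counts, and 17 moved further. The sign differed from the reported one in 11 alternatives, all for values whose interval included 0. For inside minus between, the XO median ranged from -5.83 to 2.39, the XX median from -0.243 to 6.44 and the XX minus XO difference from -0.0777 to 3.69. Pseudogene minus flanks at 2 kb was 0.739 in XX and -0.459 in XO, and at 50 kb 1.40 in XX. The median XX minus XO difference over all members was -11.8 points with 10 or more rows, -13.9 on the forward strand alone and -12.2 on the reverse strand alone, where fewer members passed 5 rows. Between genes it was -13.1 with 10 or more rows, -12.9 on the reverse strand and -8.42 in members with a CpG observed to expected ratio of 0.6 or more. Inside genes it was -10.2 on the reverse strand and -7.44 at that ratio. The XO excess of pseudogenes over flanks of 50 kb was 7.21 points. The share of windows with a second copy was 27.3% at 31 bases, 4.87% at 75 bases and 8.04% at 51 unconverted bases. At 10 points 436 members were lower and 17 higher, and at 30 points 112 were lower and 1 higher. With each parent counted once, 62.4% of parental CpGs were kept. The settings for exon rows, for the clusters, for copied CpGs within members and for the CpGs kept were chosen after seeing the data. Without counts, the noise of single values cannot be separated from their spread.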

Other observations

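X-linked processed pseudogenes, left out of the report by the choice of autosomes, showed values in the same range. The 38 with 5 or more rows had medians of 23.0% in XX and 42.2% in XO, with a median difference of -12.0 points (interval -25.0 to -6.67). The interval of this difference includes the median difference of the autosomal members. Lower in XX were 34 of the 38, 89.5%, close to the 86.7% of all autosomal genes, so this count does not set them apart. By at least 20 points 14 were lower, 36.8%, against 40.7% of autosomal members and 13.6% of all autosomal genes. Shares over other X-linked genes were not taken.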
